A study of Homo sapiens with 6 samples.

Results

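Laminins are trimers of an alpha, a beta and a gamma chain, and 9 genes of laminins and other basement membrane proteins are described here in HuCCT-1 cells, a long-established line grown from a human bile duct cancer. The members were chosen by symbol and were all found among the 60605 genes of the count table: the laminin chains LAMA3, LAMA5, LAMB1, LAMB2, LAMB3 and LAMC1, the heparan sulfate proteoglycans HSPG2 (perlecan) and AGRN (agrin), and the linker NID1 (nidogen-1). Polyadenylated RNA was sequenced from 3 libraries of cells given JNJ-64619178 at 6 nM over 4 days and from 3 libraries of cells given an equal volume of its solvent, DMSO. JNJ-64619178, called the inhibitor below, blocks PRMT5, an enzyme that methylates arginines on histones and splicing proteins. Both groups were the same unmodified line in DMEM-F12 medium with serum and antibiotics, so the comparison covers 1 cell line, 1 dose and 1 time. Nothing in the labels tells separate cultures from repeat libraries of 1 culture within a group, and the p-values then cover no more than the variation among these samples, part or all of which may be technical.

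The basement membrane is the thin matrix sheet under epithelial cells. Laminin trimers form its first network at the cell surface, type IV collagen forms a separate one, and nidogen and perlecan link the networks. A trimer is named after the numbers of its chains: laminin-332, which holds LAMA3 and LAMB3, anchors epithelia through hemidesmosomes, while laminin-511 (LAMA5, LAMB1, LAMC1) and laminin-521 (LAMA5, LAMB2, LAMC1) differ only in the beta chain. Trimers are assembled inside the cell before secretion.

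Gene counts per library came to between 28133746 and 30691914 with DMSO and between 23931991 and 28224911 with the inhibitor. All levels below are CPM, each gene's share of the library total after TMM scaling (a trimmed-mean correction between libraries), and n = 3 in each group. The line matched its label: all 8 markers of biliary and simple epithelium had a mean above 1 CPM. Their summed level was 5645 to 5919 CPM with DMSO and 4571 to 4838 CPM with the inhibitor, so these markers were lower in every inhibitor library, and their part in the results below was not tested. The 7 fibroblast markers summed to 0.688 to 1.44 CPM in DMSO libraries and 1.08 to 2.03 CPM in inhibitor libraries, and the 5 endothelial markers to 0.642 to 1.09 and 1.10 to 1.54 CPM. The 5 leukocyte markers, of which CD14 alone had a mean of at least 1 CPM and 1 was at 0, summed to 2.14 to 2.95 and 3.38 to 3.73 CPM. The 5 hepatocyte markers summed to 336 to 351 and 352 to 389 CPM, of which SERPINA1 alone had a mean of at least 1 CPM and TTR was at 0. In bulk RNA, fewer cells that express a gene and less RNA per cell cannot be told apart.

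The promoters of 3 members are shown first: LAMB2 and LAMB1, the beta chains that tell laminin-521 from laminin-511 and that moved in opposite directions, and HSPG2, which rose. The sequences are from RefSeq on GRCh38.p14, whose promoter table held 8 of the 9 members, and each lies within the 250 bases before the listed start site. They are written 5′ to 3′ on the strand of the gene, only up to the first base of an exon annotated in GENCODE release 29. Capitals mark GC boxes, the letters GGGCGG on either strand.
LAMB2, chr3:49133119-49133300, minus strand: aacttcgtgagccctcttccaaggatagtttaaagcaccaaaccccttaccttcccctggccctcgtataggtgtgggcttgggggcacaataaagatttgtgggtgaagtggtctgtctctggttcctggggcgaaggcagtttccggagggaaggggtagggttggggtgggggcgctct
LAMB1, chr7:108003256-108003411, minus strand: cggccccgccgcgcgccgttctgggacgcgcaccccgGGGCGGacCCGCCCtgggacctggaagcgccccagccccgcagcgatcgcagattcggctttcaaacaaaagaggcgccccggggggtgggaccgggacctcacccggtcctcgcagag
HSPG2, chr1:21937311-21937560, minus strand: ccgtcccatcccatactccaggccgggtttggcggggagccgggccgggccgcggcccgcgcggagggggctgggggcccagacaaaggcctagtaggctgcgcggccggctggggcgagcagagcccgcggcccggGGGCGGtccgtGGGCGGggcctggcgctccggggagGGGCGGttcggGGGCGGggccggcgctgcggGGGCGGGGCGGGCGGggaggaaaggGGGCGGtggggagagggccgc
The HSPG2 window held 8 GC boxes, some of them overlapping, and was 82.8% G and C. The full 250 bases of LAMB1 held 4 GC boxes, 2 of them in the stretch shown, and those of LAMB2 held 1, which lies closer to the start than the stretch shown. Of 35116 promoter windows of the same length 42.6% held at least 1 GC box, and the median G and C content was 58%. The AP-1 letters TGANTCA, searched on both strands, were found in the windows of LAMA3 (2 matches) and in 1 of the 3 LAMB3 windows, and 6.57% of all windows held them. Neither TATAAA nor CACGTG nor GGAATG was found in any of the 10 member windows. These matches are descriptions of the letters and not binding sites.

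Among the members, LAMB2 rose most, followed by perlecan. LAMA3 and LAMC1 rose slightly, LAMB1 fell slightly, and LAMA5, LAMB3 and agrin did not pass the test. Of the 9 members 8 passed the filter on low counts. With edgeR's quasi-likelihood test and Benjamini-Hochberg adjustment over 17371 genes, 4 of the 8 were higher and 1 was lower at a threshold of 0.05. Over all tested genes 37.1% were called, 3478 higher (20%) and 2970 lower (17.1%). With upper-quartile scaling 2800 were higher and 4099 lower over all genes, and 4 members were higher and 2 lower. The median log2 fold change of the 8 members was 0.12, against 0.001 over all genes tested.

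The members are abundant genes with many exons. Of the 464 tested genes at least as abundant as the scarcest tested member, 54.5% were called, 26.7% higher and 27.8% lower, and the groups did not overlap in 60.6%. The tested members have 23 to 97 exons in the longest annotated transcript. Of the 1509 tested protein-coding genes with at least 23 exons, 53.3% were called, 43.7% higher and 9.54% lower, with a median log2 fold change of 0.15, and the groups did not overlap in 59%. With 5 of 8 called, the members were near these backgrounds, and the part of exon number in these results was not tested. In 5 of the 8 members the groups did not overlap, as in 47% of all genes tested.

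**Figure D1:**
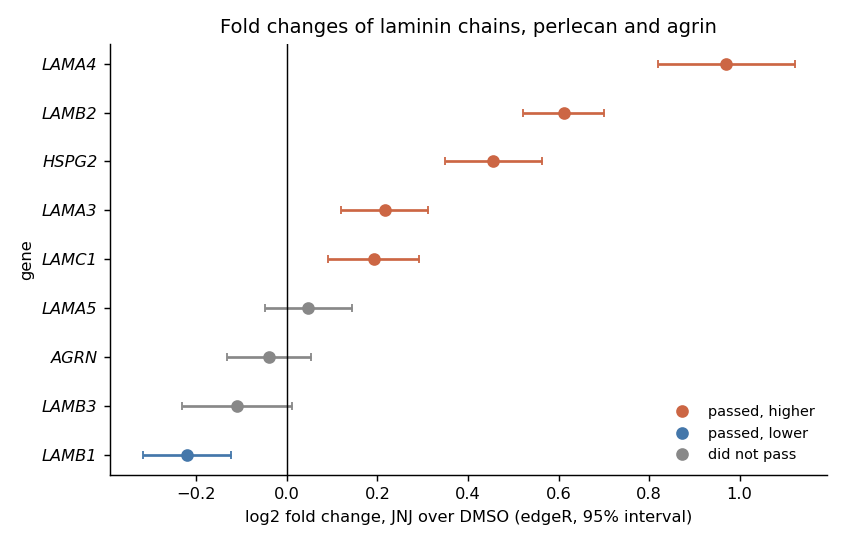
Log2 fold change of inhibitor over DMSO (horizontal axis) for 8 members and the laminin chain LAMA4 (vertical axis), with 95% intervals from edgeR. LAMB2 (0.61) and HSPG2 (0.46) lie clearly to the right among the members, LAMB1 (-0.22) is the only called decrease, and the intervals of LAMA5, AGRN and LAMB3 cross 0.

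LAMB2 encodes the beta chain of laminin-521 and laminin-321, best known from the synapse and the filtration barrier of the kidney. Its level was 224, 224 and 214 CPM in the DMSO libraries and 329, 339.8 and 342 CPM in the inhibitor libraries. Every inhibitor library was above every DMSO library by far more than the replicates differed among themselves. The log2 fold change was 0.61 (SE 0.04, edgeR adjusted p = 6.32e-11), a 1.53-fold increase. LAMB2 (ENSG00000172037) lies on chromosome 3 at 49121114 to 49133118 on GRCh38, and has 33 exons in its longest transcript. The pseudogene LAMB2P1 had between 8 and 21 counts per library, against at least 6191 for LAMB2.

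LAMB1, the beta chain of laminin-111, laminin-411 and laminin-511, went the other way. Its level was 378, 412 and 397 CPM with DMSO and 356, 325 and 338 CPM with the inhibitor. The groups did not overlap, but the gap between the lowest DMSO and the highest inhibitor library was small. LAMB1 fell by 0.22 on the log2 scale (SE 0.05, edgeR adjusted p = 6.01e-04), a 1.17-fold decrease. It lies on chromosome 7 at 107923799 to 108003255 (ENSG00000091136), and its gene model overlaps that of DLD, an enzyme subunit of mitochondrial dehydrogenase complexes, on the opposite strand. DLD had 10.3% as many counts as LAMB1 and did not pass the test (log2 fold change -0.04, edgeR adjusted p = 0.67). The library kit marks strand, per the labels, but whether the counting used it is not known here, and the part of shared reads in the LAMB1 value was not tested.

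The third beta chain, LAMB3 of laminin-332 (ENSG00000196878, chromosome 1, 209614870 to 209652466), did not pass. Its level was 3198, 2939 and 2709.7 CPM with DMSO and 2570.5, 2935 and 2692 CPM with the inhibitor. The groups overlapped, though the inhibitor libraries at 2570.5 and 2692 CPM were below every DMSO library. The DMSO libraries alone spread from 2709.7 to 3198 CPM. The log2 fold change was -0.11 (SE 0.06, edgeR adjusted p = 0.15), with a 95% interval from -0.23 to 0.01. LAMB3 passed as lower without DMSO replicate 3 (log2 fold change -0.18, edgeR adjusted p = 0.0153) and without JNJ replicate 2 (-0.16, 0.0344). It also passed with upper-quartile scaling (-0.17, 0.0293) and with no filter on low counts (-0.12, 0.0169), and over all 13 alternatives that test against no change its adjusted p ranged from 0.0153 to 0.566.

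**Figure D2:**
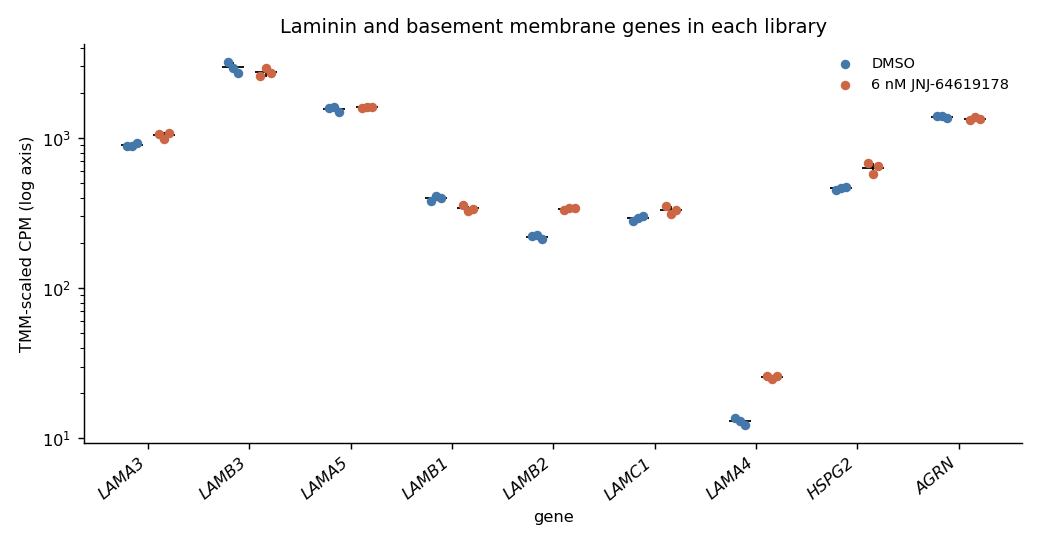
TMM-scaled CPM on a log axis for 8 members and the chain LAMA4 in each of the 3 DMSO and 3 inhibitor libraries (points), with the mean and SD (black). LAMB3 lies highest (2570.5 to 3198 CPM), LAMB2 and HSPG2 show separated groups, and NID1, with 3 counts in all, is not drawn.

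Of the alpha chains, LAMA3, which forms laminin-332 and binds the hemidesmosome integrin, rose slightly. Its level was 884, 887 and 922 CPM with DMSO and 1062, 987 and 1079 CPM with the inhibitor, with no overlap between the groups. The log2 fold change was 0.22 (SE 0.05, edgeR adjusted p = 6.95e-04), a 1.16-fold increase. LAMA5, the alpha chain of laminin-511 and laminin-521, was at 1574, 1604 and 1479 CPM with DMSO and 1588, 1607 and 1617 CPM with the inhibitor. These ranges overlapped, the log2 fold change was 0.05, and its 95% interval ran from -0.05 to 0.14 (edgeR adjusted p = 0.461). LAMA5 (ENSG00000130702, chromosome 20, 62307955 to 62367312) overlaps the gene of ADRM1, a ubiquitin receptor of the proteasome, on the opposite strand. ADRM1 had 5.82% as many counts as LAMA5 and was called higher (log2 fold change 0.15, edgeR adjusted p = 0.0127). The part of shared reads in the LAMA5 value was not tested.

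LAMA3 (ENSG00000053747) lies on chromosome 18 at 23689443 to 23956222 and has 15 annotated transcripts. The start site listed for it by RefSeq lies 184 kb inside the gene, at the start of the short form, and 2 transcripts begin within 1 kb of it. Counts per gene do not tell the short form from the long one. The level of LAMA3 per length, used below, therefore depends on which form these cells make.

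The gamma chain LAMC1, shared by most trimers outside laminin-332, was at 279, 294 and 301 CPM with DMSO and 353, 311 and 334 CPM with the inhibitor. The groups did not overlap, and the log2 fold change was 0.19 (SE 0.05, edgeR adjusted p = 0.00323), a 1.14-fold increase. LAMC1 (ENSG00000135862) lies on chromosome 1 at 183023460 to 183145592.

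Of the large proteoglycans of the basement membrane, perlecan rose and agrin did not pass. HSPG2 was at 453, 463 and 468 CPM with DMSO and 678, 574 and 646 CPM with the inhibitor. The groups were well apart, with a wider spread among the inhibitor libraries. Its log2 fold change was 0.46 (SE 0.05, edgeR adjusted p = 1.67e-07), a 1.37-fold increase, and it ranged from 0.40 to 0.52 as each library was left out in turn. AGRN was at 1400.5, 1392 and 1353 CPM with DMSO and 1326, 1375 and 1333 CPM with the inhibitor. The groups overlapped, and the log2 fold change of AGRN was -0.04 with a 95% interval from -0.13 to 0.05 (edgeR adjusted p = 0.527). The difference between the changes of HSPG2 and AGRN was not tested, but their 95% intervals (0.35 to 0.56 for HSPG2) do not overlap. HSPG2 (ENSG00000142798) lies on chromosome 1 at 21822245 to 21937297 and AGRN (ENSG00000188157) on the same chromosome at 1020123 to 1056118.

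NID1 (ENSG00000116962, chromosome 1, 235975830 to 236065162), the linker between laminin and type IV collagen, had 3 counts in all 6 libraries together, 2 with DMSO and 1 with the inhibitor, and no fold is given. Its paralogue NID2 stood at no more than 0.0848 CPM in any library. Among the other laminin chains, LAMA1 (13 counts in all), LAMB4 (7) and LAMC3 (2) were also below the filter. LAMA2 was tested at 0.48 CPM with DMSO and did not pass (log2 fold change 0.40, edgeR adjusted p = 0.466). LAMA4, the alpha chain of laminin-411 and laminin-421, was scarce, at 13.7, 13.0 and 12.3 CPM with DMSO and 25.9, 24.9 and 25.9 CPM with the inhibitor. LAMA4 rose with no overlap between the groups (log2 fold change 0.97, SE 0.07, edgeR adjusted p = 1.74e-10).

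To compare chains within a trimer, CPM was divided by the exonic length of each gene in GENCODE release 29. Within laminin-332 the beta chain was far above the alpha chain. LAMB3 stood at 629 ± 52.2 CPM per kilobase with DMSO and 583 ± 39.6 with the inhibitor (SD, n = 3), while LAMA3 stood at 61.2 ± 1.44 and 71.0 ± 3.32. With the length of the short LAMA3 transcript, 5671 nucleotides, its level was 158 with DMSO and 184 with the inhibitor, still below LAMB3. This length was chosen after the data were seen.

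Among the other chains LAMA5 was the most abundant, at 109 ± 4.59 CPM per kilobase with DMSO and 112 ± 1.01 with the inhibitor. LAMB1 stood at 48.6 ± 2.12 and 41.7 ± 1.91, LAMB2 at 32.1 ± 0.84 and 49.1 ± 1.04, and LAMC1 at 34.7 ± 1.31 and 39.6 ± 2.52. The order of the beta chains LAMB1 and LAMB2 thus turned by exonic length, while by coding length LAMB2 with the inhibitor reached the level of LAMB1 (both 62.5). In laminin-521 the scarcest chain by exonic length was LAMB2 with DMSO and LAMC1 with the inhibitor, and by coding length it was LAMB2 in both groups. LAMB2 and LAMC1 with DMSO differed by little more than their spread.

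The ratio of LAMB2 to LAMB1 per length was 0.702, 0.645 and 0.64 in the DMSO libraries and 1.10, 1.24 and 1.20 in the inhibitor libraries. Every inhibitor library was above 1 and every DMSO library below it, and the ratio rose 1.78-fold. Whether the ratio crosses 1 depends on the lengths used, but its change does not, and the change is also free of the scaling between libraries. The log2 change was 0.83 (SD 0.07 with DMSO and 0.09 with the inhibitor), and between 0.80 and 0.88 as each library was left out. With 3 samples against 3 an exact permutation test cannot give a two-sided p below 0.1, so no test was made of ratios.

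The ratio of LAMA3 to LAMA5 was 0.547, 0.538 and 0.607 with DMSO and 0.651, 0.598 and 0.65 with the inhibitor, and the groups overlapped. The ratio of LAMB3 to LAMB1 overlapped as well (13.0 ± 1.51 and 14.0 ± 1.58). Of all beta chain signal per length, LAMB3 made up 88.6 ± 0.92% with DMSO and 86.5 ± 0.93% with the inhibitor, and LAMB2 made up 4.54 ± 0.24% and 7.30 ± 0.33%.

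**Figure D3:**
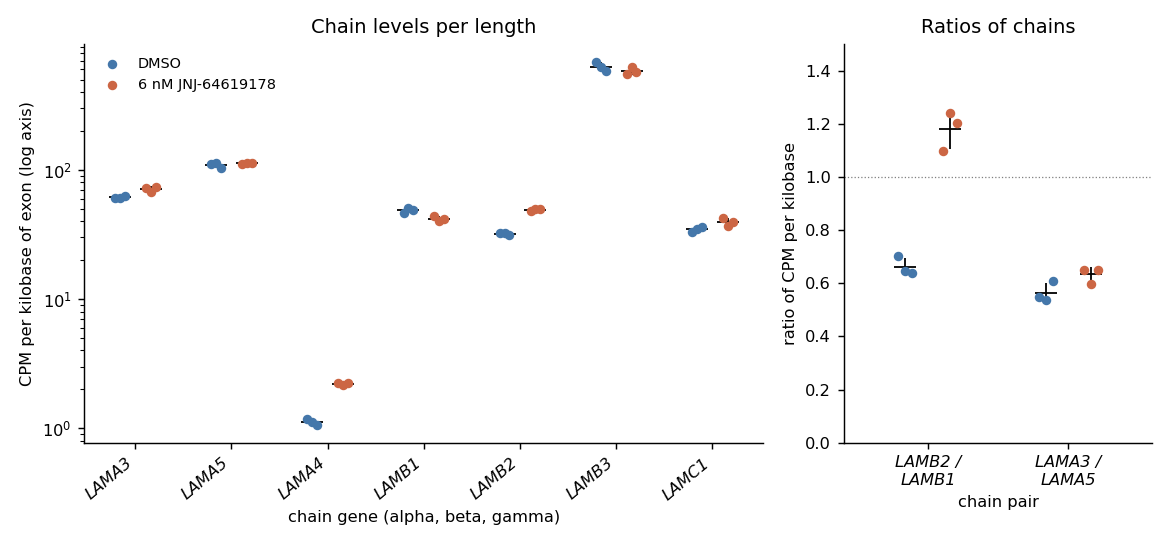
Left, CPM per kilobase of exon on a log axis for LAMA4 and the laminin members in each library. Right, the ratio per library of LAMB2 to LAMB1 and of LAMA3 to LAMA5, with points for libraries, black marks for mean and SD, and a dotted line at 1. The LAMB2 to LAMB1 ratio is at most 0.702 in the DMSO libraries and at least 1.10 in the inhibitor libraries, while the LAMA3 to LAMA5 ratios overlap.

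Other genes of the basement membrane and of its attachment to cells were described by lists. Of 29 other basement membrane components 19 were tested, 5 were higher, 2 were lower and the median log2 fold change was 0.14. The 36.8% called was near the 37.1% of all tested genes. The network-forming collagen chains COL4A3 (0.89, from 31.0 ± 2.07 to 57.7 ± 5.66 CPM) and COL4A6 (0.54) rose, and so did SMOC1, a matrix protein that binds calcium (0.78, from 18.7 ± 1.67 to 32.2 ± 0.70 CPM). COL4A2 rose from a very low level, 1.47 to 2.79 CPM. COL4A5, the most abundant of these chains at 325 ± 15.1 and 367 ± 14.2 CPM, rose by only 0.18. It was called in 12 of 13 alternatives. COL4A4 (0.14, from 40.6 to 44.7 CPM) and COL4A1 (0.35 and 0.62 CPM) did not pass. The netrin NTN4, which binds laminin short arms and can disrupt the laminin network, fell by 0.38 on the log2 scale, from 136 ± 5.24 to 104 ± 1.21 CPM. PXDN, the peroxidase that forms sulfilimine bonds between type IV collagen molecules, fell by 0.34, and did not pass without DMSO replicate 2 (edgeR adjusted p = 0.0644). COL18A1, FBLN1, FRAS1 and TINAGL1 did not pass (log2 fold changes -0.05, 0.04, -0.04 and -0.08).

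Laminin receptors went both ways. All 12 were tested, 4 were higher, 5 were lower (75% called, against 37.1% of all tested genes) and the median was -0.07. The integrin subunits that bind laminin-332 and laminin-511 were lower or did not pass: ITGA3 was at 1748, 1735 and 1688 CPM with DMSO and 1419.5, 1446 and 1460 CPM with the inhibitor. It fell by 0.26 on the log2 scale (SE 0.04, edgeR adjusted p = 6.49e-05). ITGA6 (-0.18) and the shared partner ITGB1 (-0.20) fell, though 1 inhibitor library of ITGB1 (1129 CPM) was above 1 DMSO library (1125 CPM), and ITGB4, the partner of ITGA6 in hemidesmosomes, did not pass (-0.04). The tetraspanin CD151, which binds these integrins, fell (-0.16), and did not pass without JNJ replicate 1 (edgeR adjusted p = 0.0699).

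The subunits ITGA1 and ITGA2, which bind collagen as well as laminin, rose. ITGA1 went from 41.2 ± 1.88 to 69.2 ± 4.64 CPM (log2 fold change 0.75) and ITGA2 from 882 ± 38.8 to 1215 ± 58.8 CPM (0.46). BCAM, a receptor for LAMA5 chains, rose by 0.23 on the log2 scale. Of the heparan sulfate syndecans SDC1 fell (-0.34) and SDC4 rose (0.21). DAG1, which encodes dystroglycan, a receptor of laminin, agrin and perlecan, did not pass (-0.10, edgeR adjusted p = 0.112).

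In the list of hemidesmosome and anchoring fibril genes, 2 of 7 were higher, 2 were lower and the median was -0.04. That is 57.1% called, against 37.1% of all tested genes. COL7A1, whose fibrils hold laminin-332 to the tissue below, was at 466, 474 and 464 CPM with DMSO and 993, 1006 and 901 CPM with the inhibitor. It rose by 1.05 on the log2 scale (edgeR adjusted p = 3.35e-14), and COL17A1, a transmembrane collagen of hemidesmosomes, went from 447 ± 7.66 to 590 ± 17.7 CPM (0.40). The plakins PLEC (-0.05) and DST (0.04) did not pass. ITGA6 and CD151, in this list too, were the lower members.

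Enzymes that build the laminin-binding glycan on dystroglycan were tested in 11 of 13 cases, with 4 higher, 2 lower and a median of 0.04. Of those tested 54.5% were called, against 37.1% of all tested genes. RXYLT1 (0.51, from 13.7 ± 0.36 to 19.5 ± 1.16 CPM) and the mannosyltransferase POMT1 (0.36, from 57.7 ± 2.39 to 74.0 ± 2.19 CPM) rose, while POMGNT2 (-0.36) and B3GALNT2 (-0.20) fell. The polymerising enzyme LARGE2 was below the filter.

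For heparan sulfate, the chains that perlecan and agrin carry, 15 of 16 enzymes were tested, 1 was higher, 3 were lower and the median was -0.03. The 26.7% called was below the 37.1% of all tested genes. The polymerase subunits EXT1 (-0.24, from 104 ± 3.25 to 87.8 ± 0.59 CPM) and EXT2 (-0.20, from 157 ± 5.02 to 137 ± 3.54 CPM) and the linker enzyme B4GALT7 (-0.30) fell. XYLT2 (0.13), which starts the linker, was called in 4 of 13 alternatives, with an adjusted p of up to 0.292, and lost its call without any 1 of the DMSO libraries (edgeR adjusted p = 0.0732, 0.186 and 0.129) or JNJ replicate 2 (0.124).

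Of 12 listed proteases that act on the basement membrane, directly or by activating plasminogen, 9 were tested. Among these 2 were higher, 1 was lower and the median was 0.03. The 33.3% called was below the 37.1% of all tested genes. PLAT, an activator of plasminogen, rose from 123 ± 1.67 to 170.2 ± 5.72 CPM (0.46), and MMP9 rose from 0.32 to 2.13 CPM (2.73), a level far below that of the laminins. Its log2 fold change was 3.46 without DMSO replicate 1, the highest of the DMSO libraries, and 2.33 without DMSO replicate 3. CTSL fell (-0.21). BMP1, which trims laminin chains, did not pass (0.11, edgeR adjusted p = 0.0619).

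**Figure D4:**
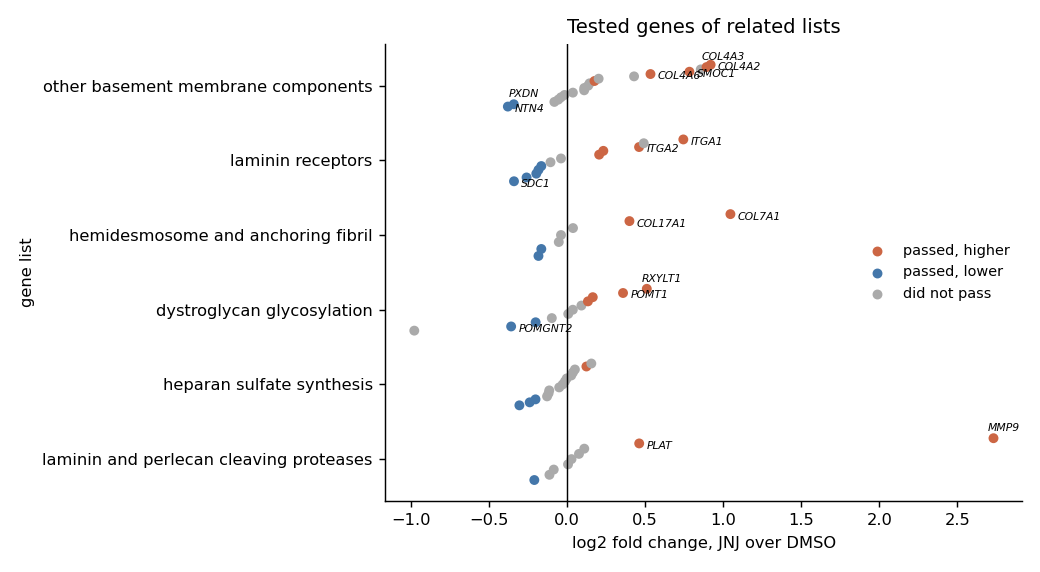
Log2 fold change of inhibitor over DMSO (horizontal axis) for the tested genes of 6 related lists (vertical axis), coloured by whether they passed the test. ITGA1 and COL7A1 lie far to the right in their lists, MMP9 (2.73, or 3.46 without DMSO replicate 1) lies furthest right, and labelled genes are called ones with the larger changes.

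The genes most like the called members were sought among the 12950 tested genes whose log2 CPM averaged 1 or more. Likeness was Pearson's r of log2 CPM over the 6 libraries, which the 2 groups dominate. For LAMB2 the closest were HID1, SEC24C, a coat protein of vesicles that leave the endoplasmic reticulum, and GBA2, a glucosylceramidase. HID1 went from 73.4 to 115 CPM, SEC24C from 245 to 403 CPM and GBA2 from 145 to 230.4 CPM. A total of 1348 genes reached r of 0.95 with LAMB2, so these 3 are not set apart from many others. For LAMB1 the closest were GPR39, ZSCAN5A and TAOK2, and 208 genes reached r of 0.95. TAOK2 was called (log2 fold change -0.14, edgeR adjusted p = 0.0422), but not without DMSO replicates 2 or 3 or JNJ replicates 2 or 3 (adjusted p = 0.143, 0.0637, 0.102 and 0.102). With all libraries kept it was not called by DESeq2 (adjusted p = 0.0633). In edgeR it also lost its call with no filter on low counts (adjusted p = 0.0672) and with the replicate block (0.0695).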

How the data were processed

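The authors deposited raw counts, as whole numbers of reads for each gene in 6 libraries, without normalization. The submitters' processing notes list STAR 2.7.9a, featureCounts 1.6.0, FastQC 0.11.8, limma and edgeR without saying what each did. They name the mouse build GRCm39, while all identifiers are human, so the build and strand setting behind the counts are unknown here. The 44 repeated identifiers, all at 0, were dropped. Symbols came from the reference table, and positions, exons and lengths from GENCODE release 29 on GRCh38.

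Genes passing edgeR's filterByExpr (minimum count 10) were scaled by TMM and tested with glmQLFTest (edgeR 4.0.16, R 4.3.3), with Benjamini-Hochberg adjustment at 0.05. The standard error is the log2 fold change over the square root of F. Scripts were tested on simulated data. All 9 members, the other laminin chains, and in each list up to 3 called genes per direction with the smallest p were to be named. The 3 genes most like a member were to be named as well. List genes outside this rule (COL4A2, COL4A5, BCAM, ITGB1, CD151 as a receptor, and all those given as not passing) were chosen after their values were seen. Some genes covered by this rule are not reported here. The members and lists were chosen with earlier results of these data known. Alternatives were DESeq2 1.42.0, limma-voom (limma 3.58.1), RLE and upper-quartile scaling, other filters on low counts, a block for replicate number, glmTreat with a fold of 1.5, and leaving out each library in turn.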

Additional observations from a re-analysis of the deposited data

How the results depend on the processing

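Across DESeq2, limma-voom, RLE and upper-quartile scaling, the other filters, the replicate block and the fits without 1 library, LAMA3, LAMB1, LAMB2, LAMC1 and HSPG2 kept their direction and their call. The number of members called lower was 2 with upper-quartile scaling and with no filter on low counts, and 1 to 2 as each library was left out, the addition being LAMB3 each time. Against a fold of 1.5 (glmTreat) 0 members were higher and 0 lower, none with an unadjusted p under 0.05, and 326 genes were higher and 128 lower over all genes. With upper-quartile scaling the LAMA5 log2 fold change was -0.012 (adjusted p = 0.874). By coding length LAMA3 and LAMA5 stood at 89.8 and 140.04 CPM per kilobase with DMSO, and by the length of its short transcript LAMA3 stood at 158, above LAMA5 by exonic length. Same-numbered libraries did not deviate together from their group means (correlation of deviations -0.02, -0.01 and 0.002), which cannot show whether the samples were paired. With the replicate block 3311 genes were higher and 2821 lower, with 4 members higher and 1 lower. At these depths no level can be given for NID1.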
